A study of Homo sapiens with 6 samples.

Results

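The genes described here encode the enzymes and carriers that bring pyruvate into the mitochondrion, oxidize it to acetyl-CoA and turn the tricarboxylic acid (TCA) cycle, together with the enzymes that feed or drain the cycle. They were chosen by name for their part in these reactions, with earlier results of these data known, and number 38 of the 67060 human genes in the count table. The libraries come from SH-SY5Y, a human neuroblastoma cell line that the labels call a neuronal progenitor. All 6 libraries are from cells exposed to 0.5 ul of adenovirus for 24 h, which means that the controls carried virus as well. The control group (3 libraries, replicates 1, 3 and 4) received Ad CMV GFP, and the other group (3 libraries, replicates 2, 3 and 4) received Ad CMV 3xFlag-*Esrrg*. In that virus the ubiquitous CMV promoter drives a tagged mouse *Esrrg* coding sequence. The groups are called GFP and ERRg below, as in the labels, and the question was how raised ERRγ changed the RNA of these genes.

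Pyruvate, the end product of glycolysis, crosses the inner mitochondrial membrane through the mitochondrial pyruvate carrier. The pyruvate dehydrogenase complex then makes acetyl-CoA from it, and is switched off by dedicated kinases and on again by dedicated phosphatases. The TCA cycle oxidizes the acetyl group and passes electrons to the respiratory chain, on which neurons depend heavily for ATP. ERRγ (estrogen-related receptor gamma, gene *ESRRG*) is an orphan nuclear receptor known for switching on genes of mitochondrial energy metabolism.

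Each library held 24969759 to 40859666 reads counted on genes. HTSeq, the counting program, assigned some reads to no feature, and their share of all reads is called the no-feature share below. It was 51.3% to 52.2% in the GFP libraries and 46.6%, 31.6% and 29.5% in ERRg replicates 2, 3 and 4. Unspliced reads inside genes may be part of it. The no-feature share separated the groups, and ERRg replicate 2 lay nearest to the controls. *ESRRG*, the overexpressed gene, had 2357, 2796 and 2876 counts in the GFP libraries and 15228, 25994 and 26497 in the ERRg libraries, and rose 8.12-fold (log2 fold change 3.02 ± 0.14 SE, adjusted p = 6.28e-07). Its counts mix the cell's own transcript with the part of the mouse coding sequence that aligned to the human gene. Among the markers of adrenergic neuroblastoma, *PHOX2A* had a mean of 52.7 CPM (counts scaled to a common library size) in GFP and 92.4 CPM in ERRg and *HAND2* 367 and 264 CPM. Of the 8 tested markers of that list 1 was called higher, *PHOX2A*, and 2 lower, *STMN2* at 142 and 88.8 CPM (log2 fold change -0.68, adjusted p = 0.00122) and *DBH* at 11.5 and 1.84 CPM (log2 fold change -2.65, adjusted p = 1.28e-06). *TH* and *CHGA* had 0 counts in every library. Every 31-base word of the *CHGA* transcripts also occurs in alternate contigs of GRCh38, so its 0 is not read as absence of its RNA. The counts of the genes around *TH* were not checked, and its 0 is not read as absence either. The 3 neural progenitor markers summed to 314 to 373 CPM in GFP and 392 to 487 CPM in ERRg. A list of 6 fibroblast and mesenchymal markers summed to 5470 to 5580 CPM in GFP and 5950 to 6260 CPM in ERRg. Of that list 0 were called higher and 1 lower, *COL1A2* at 2.50 and 0.902 CPM (log2 fold change -1.47, adjusted p = 0.000366). *FN1*, which was not called, had 1956 and 2691 CPM. Glial markers summed to at most 8.23 CPM, blood markers to at most 0.786 CPM and hepatocyte markers to at most 0.0748 CPM. The part of these shifts in the results on pyruvate and TCA cycle genes was not tested. In bulk RNA, fewer cells that express a gene and less RNA per cell cannot be told apart.

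Most pyruvate and TCA cycle genes were higher with ERRγ and none was called lower. Of the 37 members that passed the filter on low counts, 24 were called higher, meaning a Benjamini-Hochberg adjusted p below 0.05 in edgeR's quasi-likelihood test and a change of at least 1.5-fold, and 0 were called lower. Of all 24500 tested genes, 34.1% were called, 17.3% higher and 16.8% lower, while 25.9% of tested protein-coding genes were called higher and 12.4% lower. A further 3 members passed the adjusted p without reaching 1.5-fold: *ACO1*, *GLUD1* and *PDK3*. The median log2 fold change of the members was 0.84, with a range of -0.42 to 2.08, beside a median of -0.10 over all tested genes and 0.12 over protein-coding genes. Scaling by library size alone moved the median of all genes to -0.42, left 22.5% of all called genes on the higher side in place of 50.7%, and put 17 members higher and 1 lower. The members' median lay 0.95 above that of all genes with the scaling used here (trimmed mean of M values, TMM) and 0.93 above it with library size alone. Scaling shifts all genes of a library alike, so it could hardly move this gap. The gap was 0.71 with protein-coding genes only, 0.45 with the no-feature share as a covariate and 1.16 without ERRg replicate 2.

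The 2 groups did not overlap in 29 of the 37 members, beside 58.1% of all tested genes. In 28 members every ERRg library was above every GFP library (27.8% of all tested genes), and in 1, *PDK3*, every ERRg library was below (30.3%). The labels do not say whether the libraries came from separate cultures, so the p-values measure the spread between these samples, which may be technical. In all 24 called members ERRg replicate 2 was nearer to the GFP mean than the mean of ERRg replicates 3 and 4 was, as it was in 86.9% of all called genes. Without that library 26 members were called higher, and without any other single library 23 to 25 were.

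**Figure D1:**
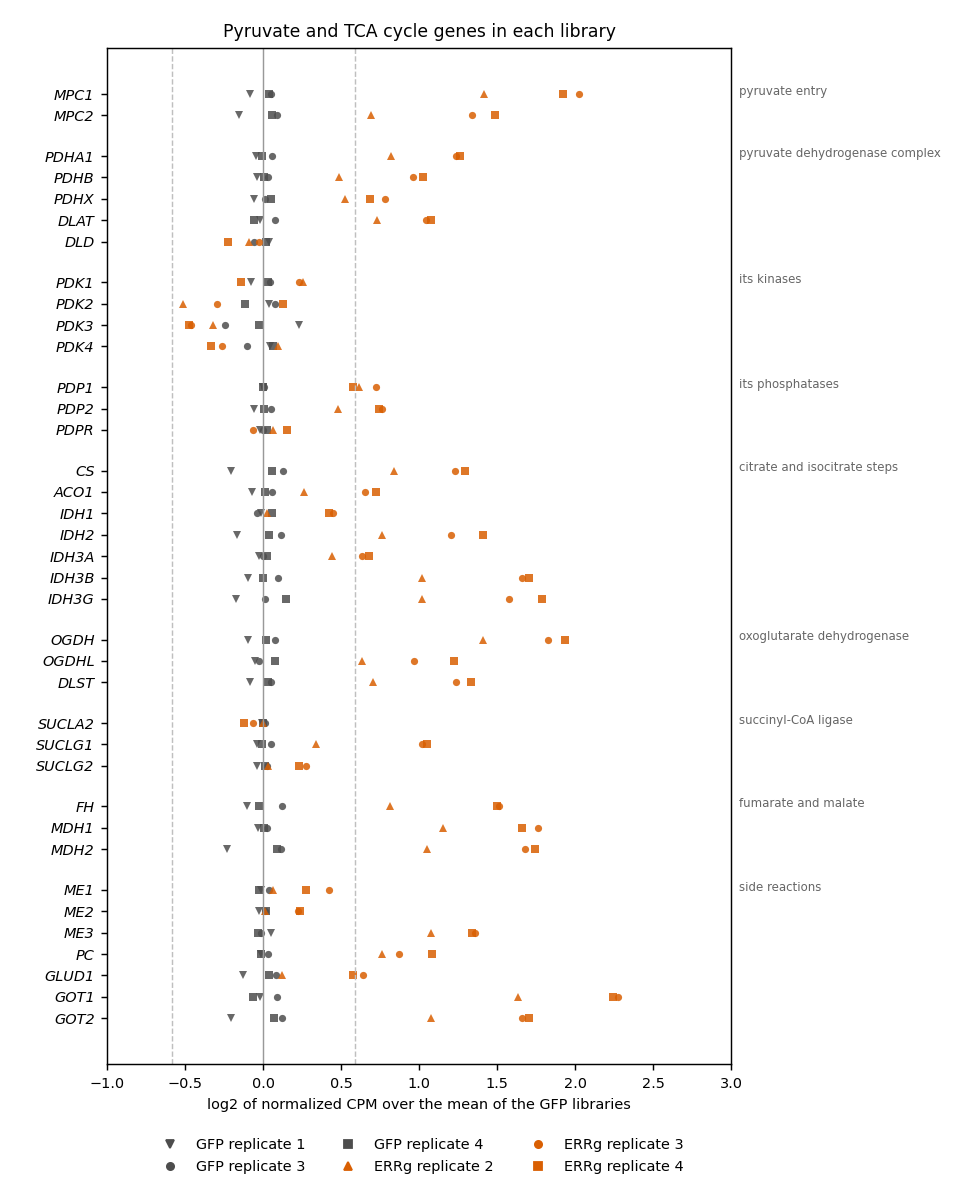
Each point is 1 library, plotted as the log2 of its normalized CPM over the mean of the GFP libraries, with genes grouped by role. The dashed lines mark a 1.5-fold change. Grey GFP points cluster at 0, and orange ERRg points lie to the right of them for most genes and near 0 for *DLD*, *PDPR* and *SUCLA2*. For the 4 kinases they lie around or to the left of 0, and for *PDK3* all of them lie left of the GFP points. The triangle of ERRg replicate 2 is usually nearest to the controls.

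Both subunits of the pyruvate carrier rose. *MPC1* (ENSG00000060762, chromosome 6, 166364919 to 166383013 on GRCh38), an obligate subunit of the carrier, had 9.58, 10.5 and 10.4 CPM in the GFP libraries and 27.1, 41.4 and 38.5 CPM in the ERRg libraries, values being CPM normalized by TMM and listed by replicate number throughout. The lowest ERRg library was far above the highest control, and *MPC1* rose 3.51-fold (log2 fold change 1.81 ± 0.15 SE, adjusted p = 2.32e-05), second only to *GOT1* among the members. Its partner *MPC2* had 16.9, 19.9 and 19.5 CPM in the GFP libraries and 30.3, 47.4 and 52.5 CPM in the ERRg libraries and rose 2.32-fold (log2 fold change 1.21 ± 0.18 SE, adjusted p = 0.00039). The ERRg libraries were again all above the controls, but replicate 2 was much closer to them than replicates 3 and 4. *MPC2* was not called with the no-feature share as a covariate, where its log2 fold change was 0.45. On the opposite strand, exons of *DCAF6* cover 21.8% of the *MPC2* exons, and whether the authors counted by strand is not given in the sources used here.

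Within the pyruvate dehydrogenase complex 4 of 5 genes rose and the shared subunit *DLD* was not called. *PDHA1*, which encodes the catalytic alpha subunit and carries the phosphorylation sites that the kinases act on, had 36.9, 39.6 and 38 CPM in the GFP libraries and 67.5, 89.9 and 91.4 CPM in the ERRg libraries, and rose 2.17-fold (log2 fold change 1.12 ± 0.12 SE, adjusted p = 8.43e-05). *PDHB*, the beta subunit of the same enzyme, had 33.7, 35.3 and 34.7 CPM in the GFP libraries and 48.3, 67.3 and 70.3 CPM in the ERRg libraries and rose 1.79-fold (log2 fold change 0.84 ± 0.13 SE, adjusted p = 0.000602). In both genes the groups were well apart, with the largest step in replicates 3 and 4. *DLAT*, the acetyltransferase that forms the core of the complex, had 45.4, 48.7 and 44.4 CPM in the GFP libraries and 76.7, 95.1 and 97.2 CPM in the ERRg libraries and rose 1.94-fold (log2 fold change 0.96 ± 0.11 SE, adjusted p = 0.000106). *PDHX*, which tethers the dehydrogenase DLD to that core, had 30.8, 32.3 and 33.2 CPM in the GFP libraries and 46.2, 55.1 and 51.5 CPM in the ERRg libraries. Its ERRg libraries lay close together above the controls, and *PDHX* rose 1.59-fold (log2 fold change 0.67 ± 0.10 SE, adjusted p = 0.00039). *DLD* (ENSG00000091140, chromosome 7, 107891162 to 107931730), the flavoprotein that this complex shares with the oxoglutarate and branched-chain complexes and with the glycine cleavage system, had 122, 114 and 119.9 CPM in the GFP libraries and 111, 116 and 101 CPM in the ERRg libraries. The groups overlapped, and the difference was not called (log2 fold change -0.11 ± 0.09 SE, adjusted p = 0.339), its sign being positive with the GC correction. *PDHB* and *PDHX* were not called with library size only (log2 fold changes 0.51 and 0.34) or in the test against 1.5-fold. Nor were they called with the no-feature share as a covariate (0.32 and 0.47). Exons on the opposite strand cover 19.3% of *PDHA1* (*MAP3K15*) and 13.3% of *DLAT* (*PIH1D2*).

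None of the 4 kinases of the complex was called, whereas the 2 catalytic phosphatases rose. The kinases phosphorylate PDHA1 and shut pyruvate oxidation down, and *PDK4* is a well-known target of nuclear receptors in muscle and liver. *PDK1* had 13.2, 14.4 and 14.3 CPM in the GFP libraries and 16.7, 16.4 and 12.7 CPM in the ERRg libraries, and *PDK2* had 15.2, 15.7 and 13.8 CPM in the GFP libraries and 10.4, 12.2 and 16.3 CPM in the ERRg libraries. For both genes the groups overlapped, with a log2 fold change of 0.12 ± 0.13 SE for *PDK1* (adjusted p = 0.449) and of -0.20 ± 0.16 SE for *PDK2* (adjusted p = 0.316). *PDK4* was the tested member with the lowest level per length, at 4.12, 3.72 and 4.17 CPM in the GFP libraries and 4.26, 3.33 and 3.17 CPM in the ERRg libraries, and its groups overlapped as well (log2 fold change -0.16 ± 0.17 SE, adjusted p = 0.459). *PDK3* (ENSG00000067992, chromosome X, 24465244 to 24550466) had 27.0, 19.4 and 22.5 CPM in the GFP libraries and 18.4, 16.7 and 16.5 CPM in the ERRg libraries. Its ERRg libraries lay just below the lowest control, and the log2 fold change of -0.42 ± 0.13 SE passed the adjusted p at 0.021 without reaching 1.5-fold. The adjusted p of *PDK3* was 0.114 without GFP replicate 1, 0.059 without GFP replicate 4, 0.0851 without ERRg replicate 3 and 0.0657 without ERRg replicate 4. The sign was not stable under other settings. *PDK1* turned negative with library size only and with protein-coding genes only, and *PDK2* positive without ERRg replicate 2. *PDK4* turned positive with the GC correction and with the no-feature share as a covariate. *PDK3* turned positive with the replicate block and GC correction together. *PDK2* was called lower with the GC correction and with the covariate, and *PDK3* with library size only and with no fold cutoff. Exons of *SAMD14* on the opposite strand cover 38.6% of the *PDK2* exons.

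*PDP1*, the calcium-stimulated phosphatase that reactivates the complex, had 83.1, 83.5 and 83.3 CPM in the GFP libraries and 128, 137 and 124 CPM in the ERRg libraries, and rose 1.56-fold (log2 fold change 0.64 ± 0.09 SE, adjusted p = 0.00028). *PDP2*, a second catalytic phosphatase, had 29.3, 31.6 and 30.5 CPM in the GFP libraries and 42.4, 51.6 and 51.0 CPM in the ERRg libraries and rose 1.59-fold (log2 fold change 0.67 ± 0.10 SE, adjusted p = 0.000522). Both changes were modest but held with little spread between libraries, and both calls were lost with library size only and with protein-coding genes only, among other settings. *PDPR*, a regulatory subunit of the phosphatase, had 52.4, 53.1 and 54.0 CPM in the GFP libraries and 55.5, 50.9 and 59.1 CPM in the ERRg libraries, with overlapping groups and a log2 fold change of 0.05 ± 0.09 SE (adjusted p = 0.655). Of the 31-base words of its transcripts 25.6% occur at more than 1 place in the genome, which makes its count uncertain.

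Among the citrate and isocitrate steps 5 of 7 genes rose. *CS*, citrate synthase, which joins acetyl-CoA and oxaloacetate at the entry of the cycle, had 186, 234 and 223 CPM in the GFP libraries and 384, 503 and 526 CPM in the ERRg libraries and rose 2.19-fold (log2 fold change 1.13 ± 0.14 SE, adjusted p = 0.000161). The lowest ERRg library was far above the highest control, although 32.3% of the words of *CS* occur at more than 1 place. All 3 genes of the NAD-dependent isocitrate dehydrogenase rose, but not by the same amount. *IDH3B*, a regulatory subunit, had 39.9, 45.6 and 42.7 CPM in the GFP libraries and 86.8, 135 and 139 CPM in the ERRg libraries and rose 2.81-fold (log2 fold change 1.49 ± 0.16 SE, adjusted p = 8.43e-05). *IDH3G*, the other regulatory subunit, had 18.7, 21.3 and 23.4 CPM in the GFP libraries and 42.9, 63.2 and 72.9 CPM in the ERRg libraries and rose 2.82-fold (log2 fold change 1.496 ± 0.18 SE, adjusted p = 0.000117). *IDH3A*, the catalytic subunit, had 16.4, 16.7 and 17.0 CPM in the GFP libraries and 22.7, 26.0 and 26.8 CPM in the ERRg libraries. Its libraries were tightly grouped and apart, and *IDH3A* rose 1.505-fold (log2 fold change 0.59 ± 0.10 SE, adjusted p = 0.000947), the called member closest to the 1.5-fold limit. That call was lost in 9 of the 19 alternatives run, 3 of them without GFP replicate 1, ERRg replicate 3 or ERRg replicate 4 (log2 fold change 0.58, 0.57 and 0.55), and exons of *CIB2* and *ACSBG1* on the opposite strand cover 38.8% of the *IDH3A* exons.

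*IDH2*, the mitochondrial NADP-dependent enzyme, had 43.2, 52.6 and 49.9 CPM in the GFP libraries and 82.2, 112 and 129 CPM in the ERRg libraries and rose 2.22-fold (log2 fold change 1.15 ± 0.15 SE, adjusted p = 0.000238). With the covariate *IDH2* was not called, at a log2 fold change of 0.56. Its cytosolic counterpart *IDH1* had 103, 101 and 108 CPM in the GFP libraries and 106, 142 and 139.9 CPM in the ERRg libraries, where ERRg replicate 2 lay among the controls and the other 2 above them (log2 fold change 0.31 ± 0.12 SE, adjusted p = 0.0536). *ACO1*, the cytosolic aconitase that doubles as an iron-responsive RNA-binding protein, had 59.3, 64.6 and 62.9 CPM in the GFP libraries and 74.8, 97.8 and 103 CPM in the ERRg libraries. Every ERRg library was above the controls, and the log2 fold change of 0.56 ± 0.12 SE (adjusted p = 0.00363) stayed just under 1.5-fold. *ACO1* was called higher in 8 of the 19 alternatives, among them DESeq2, and also without GFP replicate 3 (log2 fold change 0.59) or without ERRg replicate 2 (0.79).

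All 3 genes of the oxoglutarate dehydrogenase step rose. *OGDH* (ENSG00000105953, chromosome 7, 44606572 to 44709066), the rate-controlling dehydrogenase of the cycle, had 110.0, 124 and 119 CPM in the GFP libraries and 313, 418 and 451 CPM in the ERRg libraries. Every ERRg library was far above the highest control, and *OGDH* rose 3.35-fold (log2 fold change 1.74 ± 0.14 SE, adjusted p = 1.63e-05). *OGDHL*, a related dehydrogenase best known from brain, had 25.8, 26.2 and 28.2 CPM in the GFP libraries and 41.5, 52.1 and 62.4 CPM in the ERRg libraries and rose 1.95-fold (log2 fold change 0.96 ± 0.14 SE, adjusted p = 0.000337). *DLST*, the succinyltransferase core, had 107, 117 and 116 CPM in the GFP libraries and 185, 267 and 286 CPM in the ERRg libraries and rose 2.17-fold (log2 fold change 1.11 ± 0.15 SE, adjusted p = 0.000238). The groups were apart in both, with replicate 2 the lowest ERRg library. With the no-feature share as a covariate *OGDHL* and *DLST* were no longer called, nor was *OGDHL* with the correction for GC content and length.

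Of the 3 genes of succinyl-CoA ligase only *SUCLG1* passed the test. This enzyme makes ATP or GTP at the only substrate-level phosphorylation of the cycle, with SUCLG1 as the alpha subunit common to both forms. *SUCLG1* had 34.4, 36.5 and 35.2 CPM in the GFP libraries and 44.7, 71.7 and 73.3 CPM in the ERRg libraries and rose 1.79-fold (log2 fold change 0.84 ± 0.16 SE, adjusted p = 0.00197). Replicate 2 was only somewhat above the controls and the other 2 ERRg libraries far above. *SUCLA2* (ENSG00000136143, chromosome 13, 47745736 to 48037968), the beta subunit of the ATP-forming enzyme and the form that prevails in brain, had 48.8, 49.6 and 49.1 CPM in the GFP libraries and 49.2, 47.0 and 45.1 CPM in the ERRg libraries. These values overlapped within a narrow band (log2 fold change -0.06 ± 0.09 SE, adjusted p = 0.565), and the sign turned under 6 alternatives. *SUCLG2*, the beta subunit of the GTP-forming enzyme, had 67.5, 70.5 and 70.1 CPM in the GFP libraries and 70.9, 83.9 and 81.2 CPM in the ERRg libraries. The ERRg libraries were all above the controls by a small margin, and the difference was not called (log2 fold change 0.18 ± 0.10 SE, adjusted p = 0.14). The *SUCLG1* call was lost in 4 of the 19 alternatives, with a log2 fold change of 0.12 when the no-feature share was a covariate.

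Fumarase and both malate dehydrogenases rose. *FH*, which hydrates fumarate to malate, had 55.0, 64.2 and 58.1 CPM in the GFP libraries and 104, 168 and 167 CPM in the ERRg libraries and rose 2.48-fold (log2 fold change 1.31 ± 0.17 SE, adjusted p = 0.000196). *MDH2*, the mitochondrial malate dehydrogenase that regenerates oxaloacetate, had 175, 222 and 218 CPM in the GFP libraries and 425, 656 and 686 CPM in the ERRg libraries and rose 2.87-fold (log2 fold change 1.52 ± 0.18 SE, adjusted p = 0.000118). *MDH1*, the cytosolic enzyme, had 84.7, 88.3 and 87.2 CPM in the GFP libraries and 193, 295 and 274 CPM in the ERRg libraries and rose 2.93-fold (log2 fold change 1.55 ± 0.15 SE, adjusted p = 4.18e-05). In all 3 genes the lowest ERRg library was well above the highest control, and each was called higher under every one of the 19 alternatives.

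The side reactions of the cycle were divided, with 4 of 7 tested genes called higher. *GOT1* (ENSG00000120053, chromosome 10, 99396870 to 99430624, minus strand), the cytosolic aspartate aminotransferase that works with the malate dehydrogenases in the malate-aspartate shuttle, had 18.3, 19.7 and 17.7 CPM in the GFP libraries and 57.7, 89.8 and 87.8 CPM in the ERRg libraries. The groups were widely apart, and *GOT1* rose 4.22-fold (log2 fold change 2.08 ± 0.16 SE, adjusted p = 1.25e-05), the largest change among the members (mean 18.6 ± 1.03 CPM in GFP and 78.4 ± 18.0 CPM in ERRg, SD, n = 3). *GOT2*, the mitochondrial aminotransferase, had 98.2, 123 and 118 CPM in the GFP libraries and 238, 356 and 369 CPM in the ERRg libraries and rose 2.84-fold (log2 fold change 1.505 ± 0.17 SE, adjusted p = 8.51e-05). The 250 bases before the *GOT1* start site (RefSeq GRCh38.p14, chr10:99430625-99430874, minus strand, printed 5′ to 3′) are shown because *GOT1* changed most and because this was the only member promoter with a match to one of the motifs searched first. The capitals mark the match, TGATGCAA read on the other strand, the C/EBP-ATF response element bound by ATF4.
GOT1 promoter: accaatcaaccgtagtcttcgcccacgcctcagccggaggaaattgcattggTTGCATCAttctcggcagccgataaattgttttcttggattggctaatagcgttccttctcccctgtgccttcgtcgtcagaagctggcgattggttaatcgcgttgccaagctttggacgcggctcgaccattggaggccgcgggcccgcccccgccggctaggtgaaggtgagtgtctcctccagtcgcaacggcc

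That match lies at position -198 relative to the start site, and the same letters occur in 0.866% of all 35116 promoter windows of the table. Promoter windows of 250 bases before to 50 bases after the start were found for 36 members, and *OGDH* and *PDP1* were not matched. The extended ERR response element TNAAGGTCA was in 0 of the 36 windows, beside 0.951% of all windows, its fixed form TCAAGGTCA in 0 (0.353%), and the NRF1 core GCGCATGCG in 0 (1.92%), each searched on both strands. The core AAGGTCA, contained in the first 2 motifs and added after the data had been seen, was in 1 member window, that of *SUCLA2* (3.92% of all windows), a gene that was not called. A match is a description of letters, and a window without one says nothing about binding of a factor elsewhere.

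The malic enzymes make pyruvate from malate, and only the mitochondrial NADP-dependent *ME3* was called. *ME3* had 11.6, 11.1 and 11.0 CPM in the GFP libraries and 23.6, 28.8 and 28.4 CPM in the ERRg libraries and rose 2.40-fold (log2 fold change 1.26 ± 0.11 SE, adjusted p = 2.81e-05). Cytosolic *ME1* had 45.0, 46.6 and 44.6 CPM in the GFP libraries and 47.5, 60.9 and 54.8 CPM in the ERRg libraries, and mitochondrial NAD-dependent *ME2* had 75.5, 77.5 and 77.6 CPM in the GFP libraries and 77.4, 89.6 and 90.4 CPM in the ERRg libraries. The *ME1* libraries were apart by a small margin and those of *ME2* overlapped, with log2 fold changes of 0.26 ± 0.11 SE (adjusted p = 0.0634) and 0.16 ± 0.09 SE (adjusted p = 0.189). *PC*, pyruvate carboxylase, which makes oxaloacetate directly from pyruvate, had 18.6, 19.2 and 18.6 CPM in the GFP libraries and 31.8, 34.3 and 39.8 CPM in the ERRg libraries and rose 1.88-fold (log2 fold change 0.91 ± 0.11 SE, adjusted p = 0.000117). Its call was lost in 4 of the 19 alternatives, 1 of them the correction for GC content and length. *GLUD1*, glutamate dehydrogenase, which feeds glutamate carbon in as oxoglutarate, had 75.3, 87.4 and 84.7 CPM in the GFP libraries and 89.5, 128 and 123 CPM in the ERRg libraries. Its ERRg libraries were all above the controls, with replicate 2 just above the highest of them, and the log2 fold change of 0.46 ± 0.14 SE (adjusted p = 0.0168) did not reach 1.5-fold. The adjusted p of *GLUD1* was 0.082, 0.0815 and 0.0542 without GFP replicate 1, ERRg replicate 3 and ERRg replicate 4. Without ERRg replicate 2 both *GLUD1* and *ACO1* were called higher, with log2 fold changes of 0.72 and 0.79. Of the words of *GLUD1* 22.4% occur at more than 1 place, as do 22.8% for *SUCLG2*, 20.1% for *DLST*, 18.9% for *GOT2* and 14.1% for *PDHB*.

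*PCK2*, the mitochondrial phosphoenolpyruvate carboxykinase, had 0 counts in all 6 libraries and was not tested. It lies within a run of 35 consecutive protein-coding genes on chromosome 14 (24052009 to 24379604) that had at most 1 count each over the 6 libraries. The run includes *PSME1*, *PSME2* and *NEDD8*, genes of the proteasome and ubiquitin-like systems that cells use broadly. Of the words of *PCK2* 0.34% occur in alternate contigs of GRCh38 and 0.68% at more than 1 place. The 0 of *PCK2* is therefore not read as absence of its RNA.

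**Figure D2:**
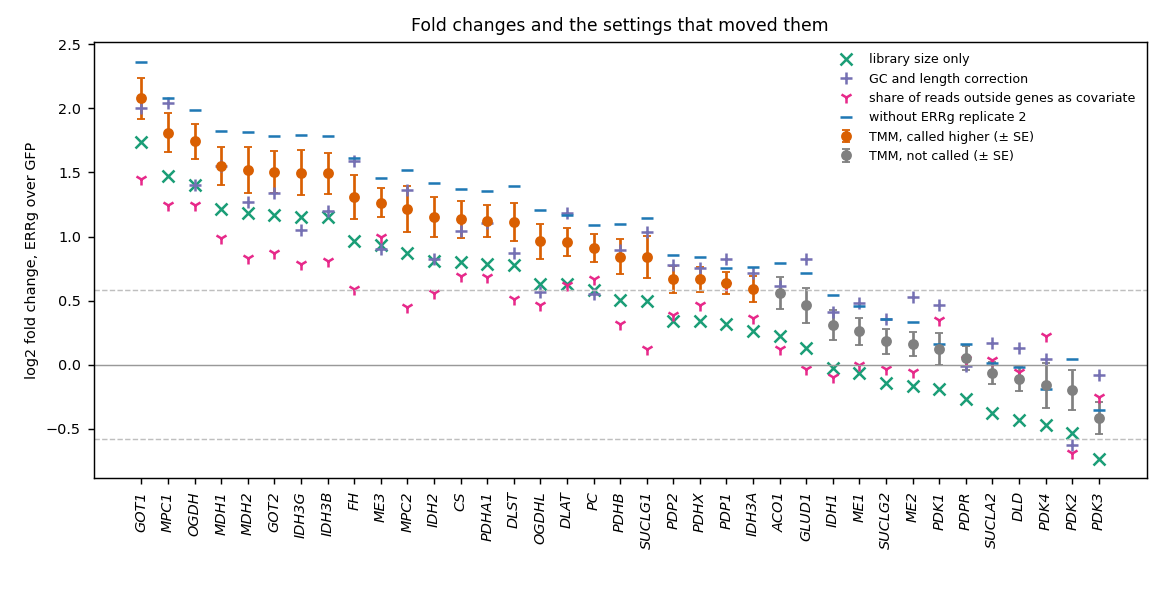
Members are ordered by log2 fold change (ERRg over GFP), with circles and SE bars for the values reported and other symbols for 4 alternatives, dashed lines marking 1.5-fold. Library size only (crosses) and the covariate (Y-shaped symbols) lie below the reported values for nearly all called members, leaving out ERRg replicate 2 (dashes) lies above, and the order from *GOT1* to *PDK3* is kept in outline.

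Across the 19 alternatives 12 members were called higher every time: *MPC1*, *PDHA1*, *CS*, *IDH3B*, *IDH3G*, *OGDH*, *FH*, *MDH1*, *MDH2*, *ME3*, *GOT1* and *GOT2*. None of the 24 called members changed sign in any of them. With no fold cutoff, a 2-fold cutoff or the test against 1.5-fold no sign could change, as these keep the reported fold changes. The no-feature share also separates the groups. With it as a covariate 15 members were called higher and 1 lower, and the members' median was 0.46 beside 0.02 for all genes. Restricting the table to protein-coding genes before scaling left 20 members higher, with *IDH3A*, *PDHX*, *PDP1* and *PDP2* no longer called.

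Summed over all members, 0.241% ± 0.00979 (SD, n = 3) of the counts on genes belonged to this pathway in GFP and 0.385% ± 0.0300 in ERRg. By library the shares were 0.230%, 0.248% and 0.246% in GFP and 0.350%, 0.401% and 0.404% in ERRg. The groups were apart and the ratio of the means was 1.60. Against all reads, including those not assigned to a gene, the ratio was 1.94, and against counts on protein-coding genes it was 1.59.

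Levels were compared between genes as normalized CPM per kilobase of exon. *MDH2* was highest in both groups, at 56.4 ± 7.26 in GFP and 162 ± 39.1 in ERRg (SD, n = 3). *CS* followed in GFP at 33.5 ± 3.95, ahead of *GOT2* at 30.2 ± 3.49. Their SDs overlapped, but *CS* was above *GOT2* in each GFP library (29.05, 36.6 and 34.9 beside 26.2, 32.7 and 31.6). In ERRg *GOT2* (85.6 ± 19.2), *OGDH* (75.7 ± 13.8) and *CS* (73.6 ± 11.9) came next and likewise lay within each other's spread. *DLD* held rank 5 of the 38 members in GFP at 23.2 ± 0.834 and rank 15 in ERRg at 21.5 ± 1.52, as genes that rose passed it. *GOT1* moved from rank 19 to 9, and *MPC1* from rank 22 to 12. At the low end *PDK3*, *PDK1* and *PDK4* stood between 0.880 and 1.32 in GFP and between 0.789 and 1.03 in ERRg, below every other tested member.

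**Figure D3:**
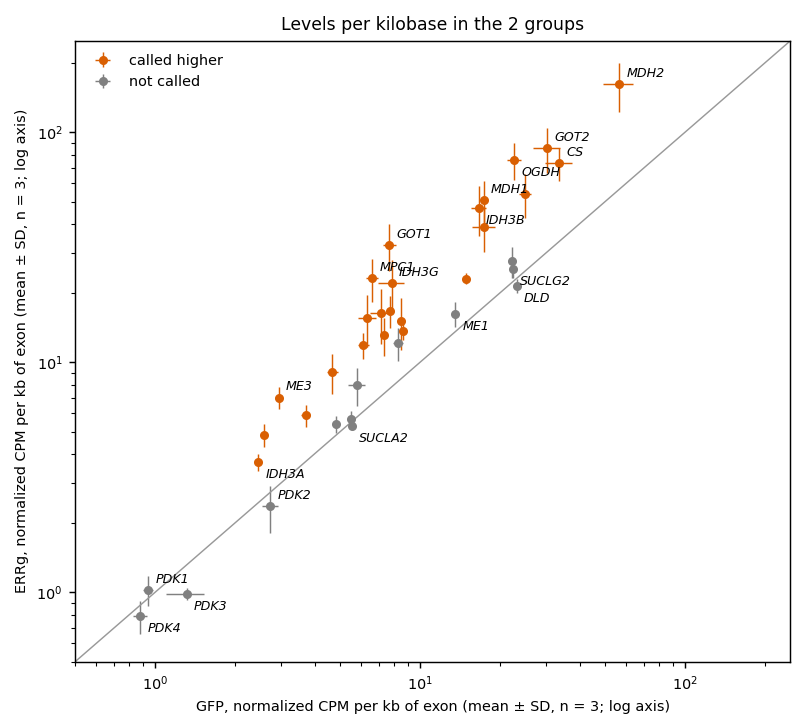
Mean normalized CPM per kilobase of exon in GFP (x axis) and ERRg (y axis), both log axes, with SD bars (n = 3 libraries each) and a line of equality. Called members (orange) lie above the line over the whole range of levels up to *MDH2*. *DLD*, *SUCLA2*, *PDK1*, *PDK2* and *PDK4* lie near or on it, and *PDK3* lies below it.

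Ratios between members of 1 library do not depend on its scaling. After the values had been seen 6 of them were formed, for partners that differed in call or, among the *IDH3* genes, in size of change. They are descriptions: the exact two-sided permutation test gave p = 0.1 for each (0.1 adjusted over the 6), the smallest that 3 against 3 libraries allow. Nothing is drawn from it. The ratios are not corrected for GC content or length, and with that correction some partners lay closer together. Log2 fold changes were then 0.90 for *ME3* beside 0.48 and 0.53 for *ME1* and *ME2*, and 0.83 for *IDH2* beside 0.41 for *IDH1*. For *IDH3B* and *IDH3G* they were 1.20 and 1.05 beside 0.71 for *IDH3A*. *DLAT* and *DLD* moved up together (1.19 and 0.13), as did *SUCLG1* and *SUCLA2* (1.035 and 0.168). The counts of *PDP1* and *PDP2* over those of the 4 kinases were 1.89, 2.16 and 2.08 in GFP and 3.42, 3.89 and 3.60 in ERRg. *DLAT* over *DLD* was 0.374, 0.429 and 0.370 in GFP and 0.689, 0.819 and 0.963 in ERRg. In both ratios every ERRg library was above every control, with a mean 1.78 times and 2.11 times that of GFP. *SUCLG1* over *SUCLA2* was 0.704, 0.736 and 0.715 in GFP and 0.908, 1.52 and 1.63 in ERRg, so that replicate 2 moved much less than the other 2 libraries. *IDH3B* and *IDH3G* over *IDH3A* went from a mean of 3.82 ± 0.224 to 7.09 ± 1.19, and *IDH2* over *IDH1* from 0.466 ± 0.0507 to 0.829 ± 0.0817 (SD, n = 3). The ratio of *ME3* to *ME1* and *ME2* was the most even within ERRg, at 0.189, 0.192 and 0.196, beside 0.0963, 0.0896 and 0.0897 in GFP.

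**Figure D4:**
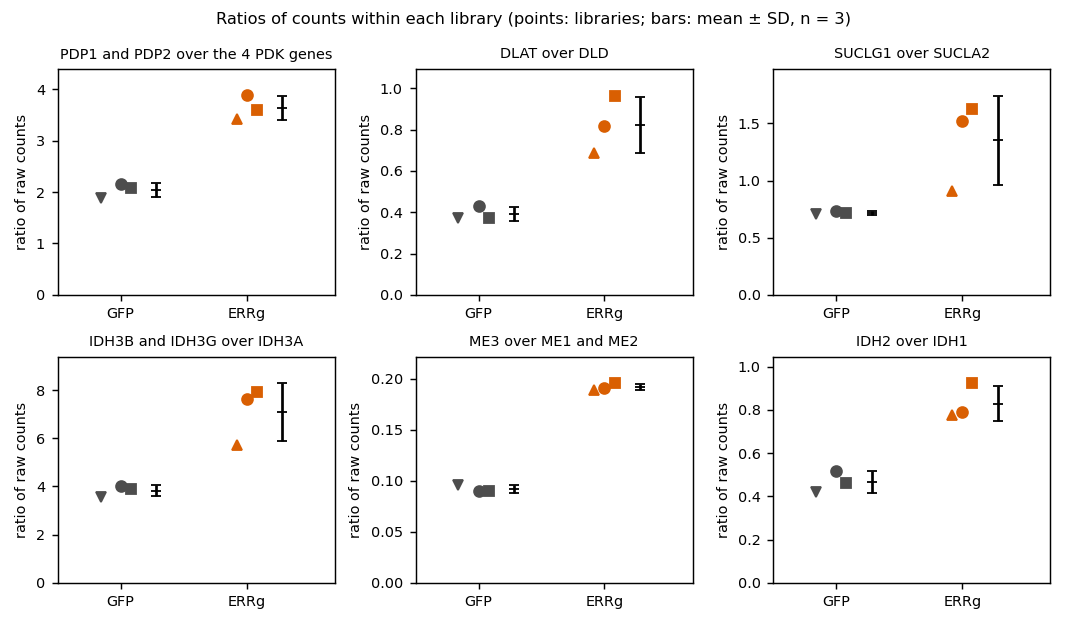
Each panel shows a ratio of raw counts within each library, grey for GFP and orange for ERRg with the same symbols per replicate as in the plot of members by library, and bars for mean ± SD (n = 3). In all 6 panels the ERRg points lie above the GFP points, and the lone low ERRg point for *SUCLG1* over *SUCLA2*, 0.908, is replicate 2.

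The called members were shorter and richer in GC than those not called. Median GC content of the longest transcript was 47.7% for the 24 called members and 40.9% for the 13 others, and median exon length was 4632 and 7555 bases. Over the 37 members the log2 fold change went with GC content (Spearman's rho = 0.523) and against exon length (rho = -0.535), genes of the same libraries not being independent points. After correction for both by smooth curves over all tested genes the coefficients were 0.264 and -0.444, and 24 members were called higher and 1 lower. *OGDHL* and *PC*, at 58.5% and 58.6% GC, lost their calls in that fit, and *ACO1* and *GLUD1* gained them.

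**Figure D5:**
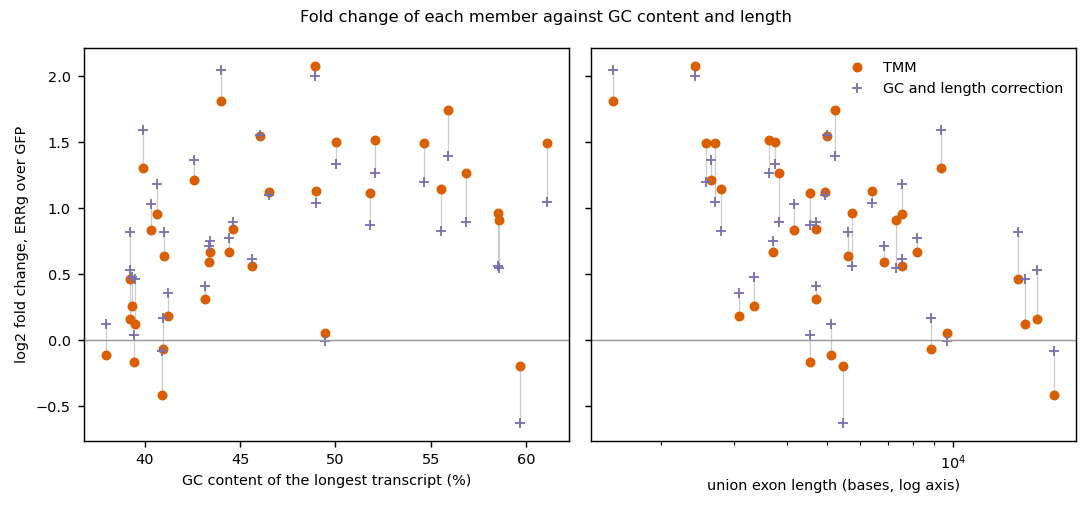
Log2 fold change of each member against the GC content of its longest transcript (left, %) and its exon length (right, bases, log axis), as reported (circles) and after correction for GC content and length (plus signs), joined by a line. The correction lowers GC-rich members such as *IDH3G* and raises GC-poor ones such as *FH*, and leaves *GOT1* and *MPC1* the 2 highest.

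Of the 54 other genes fixed as neighbours of the pathway, such as succinate dehydrogenase, lactate dehydrogenase, lipoylation, metabolite carriers and branched-chain and propionate breakdown, 47 were tested. Not tested were *PCK1*, *GLUD2* and *ACSS3* with 0 counts, and *LDHA*, *SLC16A1*, *SLC16A7* and *BCKDHA*. *LDHA* had 0, 0 and 3 counts in the GFP libraries and 2, 0 and 1 in the ERRg libraries, and *BCKDHA* at most 13 in any library. These low counts are not read as absence of the RNA. Of the tested neighbours 21 were called higher and 0 lower, with a median log2 fold change of 0.46, against 24 of 37 and 0.84 for the pyruvate and TCA cycle members. The largest was *ACSS1*, mitochondrial acetyl-CoA synthetase, with 1, 0 and 4 counts in the GFP libraries and 27, 66 and 71 in the ERRg libraries. It was close to 0 in the controls, and its fitted log2 fold change of 4.88 ± 0.58 SE depends on the added prior count. *SLC25A10*, the dicarboxylate carrier, and *SLC25A11*, the oxoglutarate-malate carrier of the malate-aspartate shuttle, followed with 3.04-fold (log2 fold change 1.60 ± 0.15 SE, adjusted p = 3.62e-05) and 2.96-fold (log2 fold change 1.56 ± 0.16 SE, adjusted p = 5.83e-05). The smallest called changes were those of *NNT*, the proton-driven transhydrogenase that makes mitochondrial NADPH (0.62), *DHTKD1*, a relative of OGDH in lysine breakdown (0.63), and *LDHB*, a lactate dehydrogenase subunit (0.67), as log2 fold changes.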

How the data were processed

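RNA of 6 SH-SY5Y samples, 3 per group as the labels give them, was sequenced after removal of ribosomal RNA in directional libraries. The authors deposited raw read counts per gene for the whole series. The submitters' processing notes name Trim Galore 0.6.7, STAR 2.7.9a, HTSeq 0.11.3, CASAVA, DESeq2 and GRCh38. The annotation release and the strand setting are not given in the sources used here. Counting is without molecular identifiers, so depth and zeros cover counting error only, and a gene with reads on its opposite strand or in copies elsewhere may hold those reads. All 6 count columns matched a sample by title (0 other columns). Summary entries of HTSeq stayed out of library sizes. Identifiers were matched to GENCODE release 44, in which 60419 of 67060 (90.1%) were found.

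Counts were compared in R 4.3.3 with edgeR 4.0.16 (filterByExpr, TMM, glmQLFit and glmQLFTest without covariates) over 24500 genes. A gene was called at an adjusted p (Benjamini-Hochberg, all tested genes) below 0.05 and at least 1.5-fold. Normalized CPM use TMM factors, and SE is the log2 fold change over the root of F. On simulated data (24236 genes) edgeR recovered 197 of 200 changed genes with 10 false calls. The changed genes were well counted, moved clearly beyond 1.5-fold and went up and down in equal numbers, and all genes had the same dispersion. The simulation therefore gives no accuracy for changes near 1.5-fold. Nor does it cover data in which many genes change or 1 library lies apart. Alternatives were DESeq2 1.42.0, RLE factors, library size only, other filters and fold limits, a test against 1.5-fold, and a table of protein-coding genes. Others were leaving out 1 library at a time, a replicate block, and the no-feature share as a covariate. Curves for GC content and length (mgcv 1.9.3, values for 98.9% of genes) were a further alternative, also together with the block. Words of 31 bases were looked up in 24 primary chromosomes and 261 alternate contigs. Plots used matplotlib 3.10.9 and tables pandas 2.3.3 with numpy 2.4.6 and scipy 1.17.1, under Python 3.11.15.

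The members and lists were chosen with earlier results of these data known. All members are named, with values by library for called members, both ends of the order and partners that differ in call. Of the list of other pathway genes, the 3 largest and the 3 smallest called changes and the untested genes are named. The cell type markers, *PSME1*, *PSME2*, *NEDD8* and the overlapping genes are named beside the results they touch. Promoters came from RefSeq on GRCh38.p14. A marker of the adrenergic list, and the sum of that list, are not reported here.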

Additional observations from a re-analysis of the deposited data

How the results depend on the processing

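Of 703 values of the 37 tested members under 19 alternatives, 616 kept their direction and side of the threshold, 42 were no longer called, 18 were newly called and 27 changed sign, none of these in a called member. These counts include settings that keep the reported log2 fold changes: no fold cutoff, a 2-fold cutoff and the test against 1.5-fold. No sign could change under these, and no call could be lost with no fold cutoff. Members called higher numbered 15 with the no-feature share as a covariate and 15 with a 2-fold cutoff, and the other pathway genes 11 and 12. A single member (*PDK2* or *PDK3*) was called lower with library size only, the GC and length correction, the covariate and no fold cutoff (1 each), and of the other pathway genes 2, 3, 1 and 2, with 1 under the replicate block with GC and length correction. The members' median was 0.51 with library size only and 0.46 with the covariate. The ratio of summed shares was 1.94 over all reads. With the motif AAGGTCA, added after seeing the data, 1 member promoter matched. The cause of these differences was not tested.

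Changed signs, as log2 fold changes, were as follows. With library size only they were -0.145 for *SUCLG2*, -0.0677 for *ME1*, -0.167 for *ME2*, -0.265 for *PDPR*, -0.189 for *PDK1* and -0.0236 for *IDH1*. With the covariate they were 0.223 for *PDK4*, -0.100 for *IDH1*, 0.0334 for *SUCLA2*, -0.0340 for *SUCLG2*, -0.0073 for *ME1*, -0.0601 for *ME2* and -0.0328 for *GLUD1*. With the GC and length correction they were -0.0084 for *PDPR*, 0.0433 for *PDK4*, 0.126 for *DLD* and 0.168 for *SUCLA2*, and with the block as well 0.159 for *SUCLA2*, -0.0525 for *PDPR*, 0.0443 for *PDK3* and 0.182 for *DLD*. With protein-coding genes only they were -0.0103 for *PDK1* and -0.0827 for *PDPR*. *SUCLA2* was 0.0134 with DESeq2 and with RLE factors. Without 1 library *SUCLA2* ranged from -0.0692 to 0.0115 and *PDK2* from -0.387 to 0.0420, both positive without ERRg replicate 2.

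Leaving out 1 library gave 23 to 26 members higher and 0 lower, 20 to 27 other pathway genes higher, and a median of 0.753 to 1.101, with the highest counts and median without ERRg replicate 2. The groups share replicate numbers 3 and 4, whose deviations from the group means correlated at 0.075 and -0.0001. Each group mean also holds a replicate that the other group lacks, and ERRg replicate 2 lay apart. These values therefore cannot decide whether the numbers pair the samples. With the replicate block 25 members were called higher and 0 lower, *ACO1* being added. Over all genes 4234 were higher and 4117 lower as reported, 4742 and 5693 with the block, 2200 and 7566 with library size only, 1773 and 1323 with the covariate, 2207 and 1387 in the test against 1.5-fold, and 1952 and 1982 with a 2-fold cutoff. The tested members had at least 3.17 CPM in every library.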
